A study of Ovis aries with 16 samples.

Results

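The small RNA cargo of extracellular vesicles (EVs) was compared with that of serum in the 3 sheep sampled about a week after a Fontan operation. EVs of animals D, E and F were set against serum of the same letter, so that each animal gave 1 pair. Of 1105 names in the table, 405 were above 0 in all 6 libraries and could be compared in every pair. The members described here are the 170 of these 405 whose share of the library's counts lay on the same side in all 3 pairs, of which 155 had a larger and 15 a smaller share in EVs. The other 235 names went different ways in different pairs, and 700 names were at 0 in at least 1 of the 6 libraries. The letters were read as animals, and membership was decided by the shares in these same libraries, so the direction of a member is how it was chosen and not a finding about it.

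The sheep were adolescents whose hearts had an otherwise normal, biventricular anatomy, and all 3 had undergone the Fontan operation in a single stage, which leads systemic venous blood to the lungs without a pumping ventricle. Animal D was sampled on day 6 and animals E and F on day 7, with n = 3 in each fraction. Libraries taken before surgery (animals A to E, n = 5 in each fraction, labelled as controls) did not enter the choice of members and are used further on for that reason. Particles of 70 to 1000 nm were collected from serum on a size-exclusion column after a spin at 300 xg, and 1 ng of RNA entered each library. No measurement of vesicle purity was used here, and no miRNA marks an EV as such.

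A miRNA is a short RNA that, loaded into an Argonaute protein, lowers the output of mRNAs it pairs with. In blood it can travel inside vesicles, on Argonaute complexes outside them, or on lipoproteins, and a size-exclusion column separates large particles from most free protein. Much of the miRNA of serum comes from blood cells, chiefly red blood cells and platelets. Every name used here is a human one, and none was checked against sheep sequence.

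The 3 serum libraries held 517833, 176789 and 262101 counts in animals D, E and F, and the 3 EV libraries held 473978, 160079 and 92810. The 10 most abundant names took 64.6% to 73.2% of counts in serum and 46.0% to 66.0% in EVs. Names above 0 numbered 569 to 844 in serum and 785 to 915 in EVs. The names at 0 were nearly the same in animals E and F within each fraction (phi coefficient between zero patterns 0.971 in serum and 0.936 in EVs), while the coefficient of either library of animal D with any other of the 6 was at most 0.347. The smallest count above 0 was 10 in EVs of animal D and 1 in the other 5 libraries. Nothing in the labels tells whether same-group samples were prepared separately, so a p-value here reflects sample-to-sample spread that may be technical.

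Most names had a larger share in EVs than in serum. Across the 405 names this held for 259 in animal D (64.0%), 281 in animal E (69.4%) and 320 in animal F (79.0%), and the median log2 ratio of the EV share to the serum share was 0.50, 0.73 and 1.45. The 155 names larger in every pair were 38.3% of the 405, and the 15 smaller in every pair were 3.7%. The median share over the 6 libraries was 0.0286% for the larger members, close to the 0.0309% of all 405 names, and 0.115% for the smaller members. Summed, the 155 took 10.4%, 19.9% and 23.9% of EV counts in animals D, E and F and 3.94%, 8.63% and 9.40% of serum counts. The 15 took 23.0%, 12.7% and 14.5% of EV counts and 31.7%, 35.8% and 43.4% of serum counts, most of it from 1 name, miR-486-5p.

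A share is a part of a whole, so its direction depends on what it is measured against. With TMM factors, which centre the bulk of names, the same rule gave 53 larger and 73 smaller names, and relative to the median name of each pair it gave 61 larger and 65 smaller. TMM scaling moved the median ratio of the 405 names from 0.92 to −0.11 on the log2 scale. Both scalings lower the ratio of every name in all 3 pairs, so the 15 smaller members stayed smaller by construction, and 53 and 61 of the 155 remained larger. Another 7 of the 155 lay below the median name in every pair, namely let-7a-5p, miR-19b-3p, miR-26b-5p, miR-142-5p, miR-148b-3p, miR-3972 and miR-6124.

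**Figure D1:**
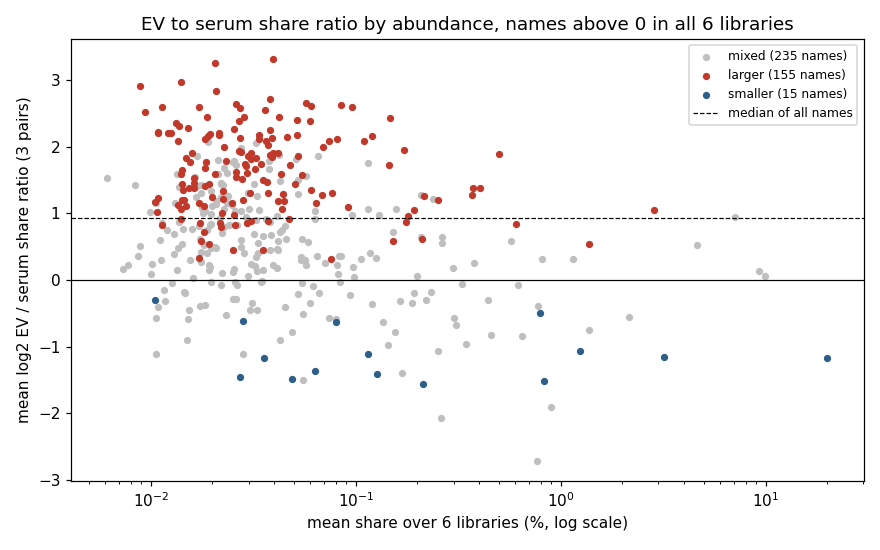
Each point is 1 of the 405 names above 0 in all 6 libraries after surgery, with its mean share of library counts over the 6 libraries on the x axis (percent, log scale) and its mean log2 ratio of EV to serum share over the 3 pairs on the y axis. Red points are the 155 larger members, blue the 15 smaller members and grey the 235 names of mixed direction. The dashed line is the median of all names, 0.92, and the blue points lie below 0 across the range of shares while most red points lie at shares under 0.1%.

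Both directions varied with abundance. Of the 330 names with a mean share under 0.1%, 136 were larger in every pair and 7 smaller, and their median log2 ratio was 1.07. Of 63 names between 0.1% and 1%, 17 were larger and 5 smaller (median 0.31). Of the 12 names at 1% or above, 2 were larger, 3 smaller and 7 mixed (median 0.095). In the plot of ratio against abundance the red points thin out towards abundant names.

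No name passed the test between fractions. edgeR's quasi-likelihood test with the animal as a block called 0 of 747 names tested (0%), with a smallest adjusted p of 0.438, and 37 names higher and 42 lower in EVs at an unadjusted p under 0.05. All 170 members were tested. Among the 155 larger members 1 had an unadjusted p under 0.05, miR-6861-5p, and among the 15 smaller members 9 had one, with smallest adjusted p of 0.468 and 0.463. These 2 counts cannot be compared, since TMM factors move larger members towards 0 and smaller ones away from it. The edgeR log2 fold change kept the direction of 129 of the 155 and of all 15. For miR-486-5p it was −2.21 with TMM factors and −1.18 with library totals only, and −2.11 by DESeq2. DESeq2 with the same block called 102 names higher (13.7%) and 61 lower (8.17%), and limma-voom called 96 higher (12.9%) and 21 lower (2.81%). Of the names called by DESeq2, 152 of 163 had a 0 in at least 1 of the 6 libraries, and all 117 called by limma-voom did. DESeq2 called 7 of the 15 smaller members (miR-486-5p, miR-92a-3p, miR-150-5p, miR-125a-5p, miR-484, miR-4322 and miR-6887-3p) and none of the larger ones. limma-voom called no member of either direction. The members were chosen for their direction in these same libraries, so calls of members are no support for that direction. With 3 pairs, the smallest p a 2-sided exact paired permutation test of a single name can reach is 0.25.

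The EV and serum shares of a member did not overlap across the 3 animals for 85 of the 155 larger names and 7 of the 15 smaller ones, which are 21% and 1.73% of the 405 names. The ratio lay beyond counting error in every pair for 80 of the larger and 9 of the smaller members, and 29 of the larger and 1 of the smaller members had under 10 counts in at least 1 library.

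miR-486-5p, a leading miRNA of red blood cells, had a smaller share in EVs. In such bulk libraries fewer vesicles or cells of a type and less RNA in each of them cannot be told apart. It took 16.1%, 10.1% and 10.5% of EV counts in animals D, E and F and 19.2%, 28.8% and 35.5% of serum counts. The fractions did not overlap, but animal D contributed a ratio near 0 (log2 −0.26) beside −1.51 and −1.76 in animals E and F, and the mean was −1.17 ± 0.80 (SD, n = 3). Its edgeR log2 fold change was −2.21 (SE 1.03, adjusted p = 0.479). Without animal D, whose ratio was the weakest, its adjusted p was 0.0154. There 198 names were called higher and 68 lower, and 259 of those 266 had a 0. Without animal E or without animal F, edgeR called 0 names. The name was chosen for its direction in these same libraries, so these p-values are no support for that direction.

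miR-92a-3p, also abundant in red blood cells and encoded beside miR-17, took 0.454%, 1.10% and 0.921% of EV counts and 1.20%, 1.67% and 2.11% of serum counts. All 3 EV values were below all 3 serum values, and the mean log2 ratio was −1.07 ± 0.41. By edgeR its log2 fold change was −2.10 (SE 0.969, adjusted p = 0.479).

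miR-150-5p, a miRNA of mature lymphocytes, took 0.392%, 0.215% and 0.724% of EV counts and 0.616%, 1.56% and 1.49% of serum counts. The lowest serum value lay below the highest EV value, so the fractions overlapped, and animal E had the largest difference (mean log2 ratio −1.52 ± 1.18). miR-125a-5p, of a family that acts in blood stem cells and immune cells, took 0.0812%, 0.104% and 0.0830% of EV counts and 0.0838%, 0.425% and 0.501% of serum counts. Its level in EVs hardly varied between animals, and its serum value in animal D was close to those of EVs (log2 ratio −0.045, against −2.03 and −2.60 in the others).

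miR-484, which has been used as a reference miRNA in serum assays, took 0.116%, 0.0512% and 0.0485% of EV counts and 0.255%, 0.151% and 0.141% of serum counts. Its ratios were close to each other (−1.14, −1.56 and −1.54, mean −1.41 ± 0.24) and the fractions did not overlap. miR-328-3p took 0.0920%, 0.0356% and 0.105% of EV counts and 0.140%, 0.192% and 0.128% of serum counts, without overlap but with an uneven ratio (mean −1.11 ± 1.15). miR-935 (0.0222%, 0.0119% and 0.0108% in EVs, 0.0498%, 0.0396% and 0.0298% in serum) and miR-4322 (mean log2 ratio −1.49 ± 0.35) were scarcer and also did not overlap. Without animal D, miR-935 was the other smaller member called by edgeR, with an adjusted p of 0.0340. With all 3 animals its adjusted p was 0.463. The name was chosen for its direction in these same libraries, so neither value is support for that direction.

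Several of the 15 carry high registry numbers and have no role known with certainty. The most abundant of these was miR-6887-3p, with 4.14%, 0.642% and 1.54% of EV counts and 8.07%, 2.07% and 2.70% of serum counts. It was highest in animal D in both fractions, so the fractions overlapped although each animal had less in EVs (mean log2 ratio −1.15 ± 0.47). miR-6756-3p took 1.38%, 0.279% and 0.432% of EV counts and 1.59%, 0.525% and 0.565% of serum counts, again highest in animal D. miR-6800-5p had a steady ratio of −0.63 ± 0.11, miR-1292-3p one of −1.37 ± 1.31 and miR-7114-3p one of −1.16 ± 1.01, and miR-1469 and miR-1265 completed the 15 at −0.62 ± 0.29 and −0.29 ± 0.11.

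**Figure D2:**
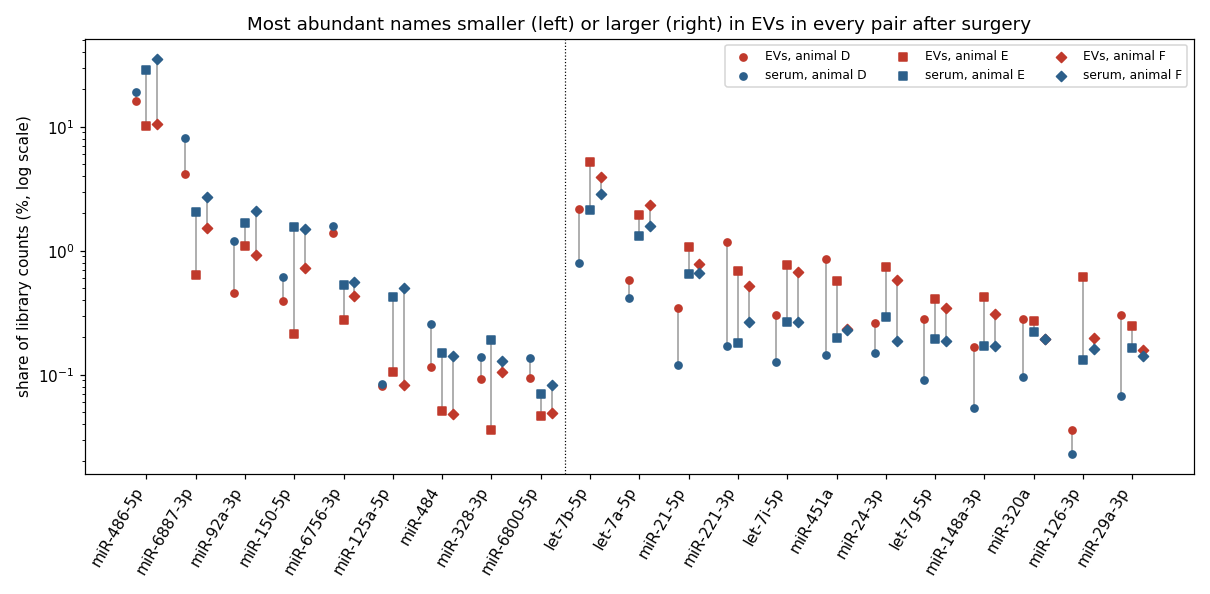
Share of library counts (percent, log scale) of the most abundant members in each library after surgery. EVs are red and serum blue, the marker shape gives the animal, and a grey line joins the 2 fractions of 1 animal. Names left of the dotted line had a smaller share in EVs in every pair and names right of it a larger one, and miR-320a and miR-451a in animal F and miR-125a-5p in animal D have 2 points that nearly coincide.

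let-7 miRNAs, which are expressed in most differentiated tissues and restrain growth genes, made up the most abundant larger members. Of 9 family members above 0 in all 6 libraries, 7 were larger in every pair, none was smaller, and the median log2 ratio was 1.05 beside 0.92 for all names. Relative to the median name none of the 9 was larger in every pair and 2 were smaller, and the same counts came with TMM scaling, so the family lay about where the bulk of names lay. let-7b-5p took 2.15%, 5.19% and 3.91% of EV counts and 0.797%, 2.12% and 2.90% of serum counts. Animal D had the lowest share in both fractions, and its EV value was below the serum value of animal F. let-7i-5p took 0.305%, 0.768% and 0.679% of EV counts and 0.126%, 0.265% and 0.267% of serum counts. All of its EV values lay above all serum values, and its ratio was alike in the 3 animals (1.28, 1.53 and 1.34, mean 1.39 ± 0.13). let-7g-5p (mean 1.20 ± 0.40) and let-7d-5p (1.16 ± 0.54) did not overlap either, while let-7a-5p, the second most abundant, had 0.55 ± 0.04. let-7f-5p was just outside the rule, with ratios of 0.056, −0.25 and 0.029. The counts of let-7 members can share reads, since their sequences are nearly the same.

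The 2 most abundant red blood cell names of the smaller members stood beside others of the same cell with a larger share in EVs. miR-451a, which is cut from its precursor by Argonaute 2 in red cell precursors, took 0.852%, 0.571% and 0.235% of EV counts and 0.145%, 0.198% and 0.229% of serum counts. The fractions did not overlap, but the ratio was 2.55 and 1.53 in animals D and E and 0.037 in animal F. miR-144-3p, transcribed together with miR-451a, had a mean log2 ratio of 2.17 ± 0.90, and miR-144-5p one of 1.38 ± 0.65. Of the 8 red blood cell names above 0, 3 were thus larger, 2 smaller and 3 mixed (median 0.026), and with TMM scaling 1 was larger and 5 smaller. miR-16-5p, the most abundant of the mixed ones, took 3.17%, 15.8% and 10.7% of EV counts and 3.10%, 10.8% and 12.3% of serum counts.

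**Figure D3:**
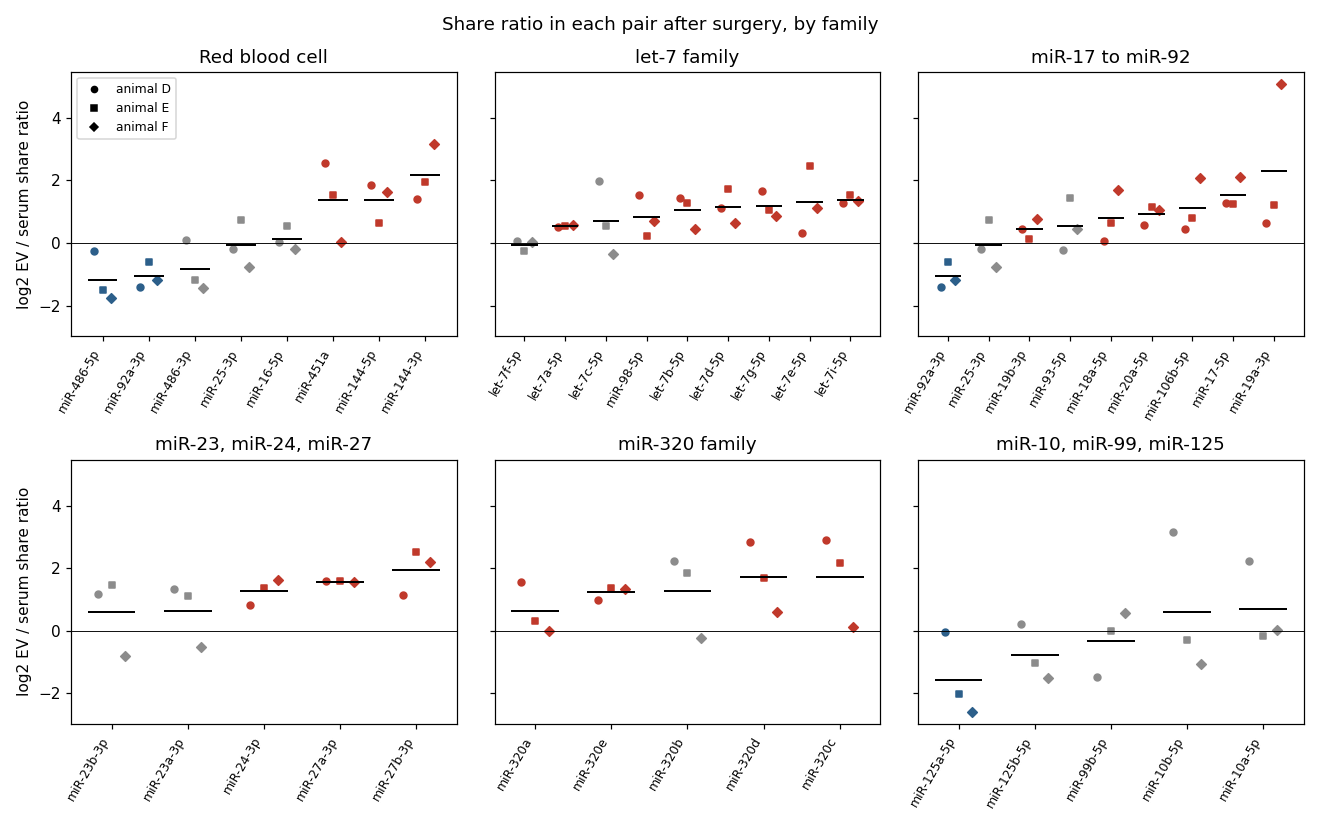
Log2 ratio of EV to serum share in each pair after surgery for the members of 6 lists. Marker shape gives the animal, the short bar is the mean over the 3 pairs, and colour gives the rule's outcome (red larger in every pair, blue smaller in every pair, grey mixed). In the red blood cell panel miR-486-5p and miR-92a-3p lie below 0 and miR-451a, miR-144-5p and miR-144-3p above it, and in the let-7 panel all members except let-7f-5p have a mean above 0.

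The miR-23, miR-24 and miR-27 clusters, which are studied in endothelium and in blood cell formation, had 3 of 5 names larger and none smaller, with a median of 1.27. Relative to the median name the same count of 3 was larger in every pair, and with TMM scaling 1 was. miR-27b-3p took 0.134%, 0.353% and 0.344% of EV counts and 0.0610%, 0.0617% and 0.0744% of serum counts, so serum was nearly level and EVs were all above it (mean log2 ratio 1.95 ± 0.73). miR-27a-3p had almost the same ratio in each animal (1.59, 1.58 and 1.55), although its shares were only 0.0395%, 0.0831% and 0.122% in EVs and 0.0131%, 0.0277% and 0.0416% in serum. miR-24-3p, which is also abundant in platelets, had 0.264%, 0.747% and 0.582% in EVs and 0.150%, 0.291% and 0.187% in serum. Its EV value in animal D lay below the serum value of animal E.

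In the miR-17 to miR-92 clusters, which promote cell growth, 6 of 9 names were larger and only miR-92a-3p was smaller. Their median was 0.79, and with TMM scaling 2 were larger and 4 smaller. miR-17-5p had a mean log2 ratio of 1.55 ± 0.49, miR-20a-5p of 0.92 ± 0.31, miR-106b-5p of 1.11 ± 0.86 and miR-19b-3p of 0.44 ± 0.33, and miR-19a-3p spread from 0.63 in animal D to 5.08 in animal F on few counts. miR-17 and miR-106 members can share reads as well. The miR-320 family, made without the usual nuclear cleavage, had 4 of 5 names larger (median 1.28) but none larger or smaller in every pair under TMM scaling or relative to the median name. The ratio was highest in animal D and lowest in animal F for miR-320c (2.89, 2.16 and 0.11), miR-320d (2.82, 1.70 and 0.59) and miR-320a (1.56, 0.30 and 0.0038), while miR-320e was steady at 1.23 ± 0.22. The miR-15 and miR-16 family had 3 of 4 names larger (median 1.17), which were miR-15a-5p, miR-15b-5p and miR-503-5p, and none was larger in every pair under either of the other scalings.

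Among miRNAs of vessels and remodelling, miR-221-3p, expressed in endothelium and smooth muscle, took 1.17%, 0.682% and 0.525% of EV counts and 0.169%, 0.182% and 0.267% of serum counts. Every EV value was above every serum value, with the gap largest in animal D (log2 ratios 2.79, 1.91 and 0.97). miR-126-3p, a miRNA of endothelium and platelets, took 0.0357%, 0.610% and 0.198% of EV counts and 0.0230%, 0.131% and 0.163% of serum counts. The fractions overlapped, since both libraries of animal D were low. miR-21-5p, a miRNA linked to scarring of heart tissue, took 0.346%, 1.08% and 0.778% of EV counts and 0.119%, 0.645% and 0.666% of serum counts, and its ratio in animal F was 0.22. Of 6 fibrosis and remodelling names 4 were larger (median 0.69), which were miR-21-5p, miR-29a-3p, miR-29b-3p and miR-34a-5p, and none was larger or smaller in every pair under either of the other scalings. Of 6 endothelium names 2 were larger (median 0.65, and −0.38 with TMM scaling).

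In none of the other marker lists did most names go the same way in every pair. By mean ratio most lay above 0, as the bulk of names did. This held for 7 of 8 platelet, 4 of 6 lymphoid, 4 of 5 myeloid, 6 of 6 liver and 4 of 4 epithelium names. Platelet names numbered 8, of which 3 were larger and 5 mixed (median 0.84, and −0.19 with TMM scaling). Of 6 lymphoid names 3 were larger and miR-150-5p was smaller. The larger ones included miR-181b-5p, a regulator of lymphocyte signalling, at 2.97 ± 1.52. Of 5 myeloid names miR-142-5p alone was larger, and miR-223-3p, which is abundant in neutrophils, was mixed (1.84, −1.85 and 0.97). Of 6 liver names 2 were larger, miR-148a-3p (mean 1.26 ± 0.41) and miR-885-5p (1.20 ± 1.08). The dominant liver miRNA, miR-122-5p, was mixed and differed in direction by animal, with log2 ratios of 2.14, 3.89 and −3.22. Epithelium (4 names), heart and skeletal muscle (2), smooth muscle (2), neuron (1) and the miR-30 family (3) had no member in either direction, and neither had the 10 names of a list known to pick up pieces of ribosomal, transfer and other RNAs. The summed share of the red blood cell list was 21.5%, 29.1% and 23.3% in EVs and 24.6%, 43.0% and 52.0% in serum of animals D, E and F, and its part in the shares of the other names was not tested.

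In the miR-10, miR-99 and miR-125 families 1 of 5 names was smaller, miR-125a-5p, and none was larger, with a median of −0.31 where the bulk of names lay above 0. Under both other scalings 3 of the 5 were smaller in every pair. The miR-29 family had 2 of 3 names larger, miR-29a-3p and miR-29b-3p, the miR-26 family 1 of 2, miR-26b-5p, and the miR-103 and miR-107 family 1 of 3, miR-107. In the imprinted 14q32 cluster 3 of 8 names were larger (median 0.77), which were miR-127-3p (2.27 ± 1.77), miR-494-3p (1.76 ± 0.92) and miR-379-5p (1.44 ± 0.69). One of 3 inflammation names was larger, miR-21-5p, and no hypoxia name and no name of the primate-restricted list was above 0 in all 6 libraries. Of 13 piRNA names 2 were larger and none smaller (median 0.18).

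The largest ratios belonged to scarce names. miR-6861-5p had the highest mean, 3.32 ± 1.02, with 0.0422%, 0.0319% and 0.145% of EV counts and 0.00676%, 0.00453% and 0.00649% of serum counts. The serum shares were nearly level in the 3 animals but rest on few counts, and animal F was highest in EVs. Next came miR-5586-5p (3.26 ± 1.44), miR-181b-5p, miR-7847-3p (2.83 ± 2.73), miR-2355-5p (2.71 ± 2.24), miR-4484 (2.65 ± 1.56), miR-5001-5p (2.63 ± 0.47), miR-5680 (2.63 ± 1.82), miR-4780 (2.61 ± 2.26), miR-4429 (2.60 ± 1.23), miR-4417 (2.60 ± 3.23) and miR-889-5p (2.59 ± 1.57). Of these 12, miR-7847-3p and miR-4417 were the ones that did not remain larger in every pair relative to the median name. Across the 405 names, which share libraries and a total within each, Pearson's r between the log2 ratios of 2 animals was 0.12 for D and E, −0.045 for D and F and 0.28 for E and F.

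By type of name, 88 of 201 miRNAs with a number below 1000 were larger (43.8%) and 7 smaller, against 32 of 95 other names from 1000 upwards (33.7%). Names from miR-4251 to miR-4804 gave 18 of 47 (38.3%), and names from miR-6715 to miR-6895 gave 15 of 49 (30.6%) with 3 of the 15 smaller members. Of names of the 5p arm 71 of 158 were larger (44.9%), and of the 3p arm 42 of 135 (31.1%). A sheep miRNA gene of the same name in RefSeq (assembly ARS-UI_Ramb_v3.0) was found for 56 of the 405 names, of which 24 were larger and 1, miR-150-5p, smaller. That annotation held only 106 sheep miRNA genes, so a name without a match is not thereby absent from sheep.

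The arms of one hairpin were also set side by side. Both arms were above 0 in all 6 libraries for 39 hairpins, and the rarer arm had the larger ratio in every pair in 6 of them and the smaller in 3, while in the other 30 the order of the arms differed between pairs. Arms without any set order would also agree in all 3 pairs for some hairpins, and these counts were not tested. The hairpins named next were picked from the 39 after their values were seen. miR-328 was the hairpin whose arms went opposite ways, with miR-328-5p larger (mean 1.88 ± 2.35) and miR-328-3p smaller. For miR-191, abundant in platelets, the 3p arm exceeded the 5p arm by 2.10, 2.06 and 2.29 as a difference of log2 ratios in animals D, E and F, while miR-486-3p and miR-486-5p differed by only 0.36, 0.34 and 0.32.

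The libraries taken before surgery give the same measure in samples that did not choose the members. Animals D and E are in both sets and animals A, B and C are not. Before surgery 393 names were above 0 in all 10 libraries, and the median log2 ratio was 1.48, 2.04, 1.16 and 1.52 in animals A, B, C and E but −0.64 in animal D, whose serum library had the lowest serum total (76988 counts) and the lowest share in its 10 most abundant names (30.0%). edgeR with the animal as a block called 0 of 768 names before surgery (0%), with 55 higher and 47 lower at an unadjusted p under 0.05 and a smallest adjusted p of 0.335.

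Of the 155 larger members 141 were above 0 in all 10 libraries before surgery, and 26 of them were larger in all 5 pairs (18.4%), beside 49 of all 393 names (12.5%). In animals A, B and C alone 113 of the 141 were larger in every pair (80.1%), beside 64.6% of all names and 58.0% of the 219 names of mixed direction after surgery. The median of their mean ratios before surgery was 1.38, against 0.97 for the mixed names, and 136 of the 141 means were above 0. Without animal D, 108 of the 141 were larger in the remaining 4 pairs, beside 236 of the 393.

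All 15 smaller members were above 0 before surgery, and 1 of them, miR-92a-3p, was smaller in all 5 pairs, where 1.02% of all names were. In animals A, B and C alone 5 of the 15 were smaller in every pair (33.3%) and 3 were larger. Of all names 6.62% were smaller in these pairs, and of the 219 mixed names 8.68%. These percents were not matched for abundance, and the smaller members had the higher median share (0.115%, beside 0.0309% for all 405 names). The mean ratio before surgery was below 0 for 8 of the 15 and above 0 for 7. miR-92a-3p had a mean log2 ratio of −0.84 ± 0.47 before surgery (n = 5). miR-486-5p was smaller in 4 of 5 animals (mean −1.04 ± 0.95), with animal D as the one above 0 at 0.18. miR-150-5p was above 0 in animals C (0.31) and D (1.40) and below it in the other 3. miR-4322 and miR-935 had means above 0 before surgery, 1.06 ± 1.14 and 0.52 ± 1.27. Whether the ratios differed between the times was not tested for these names.

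Among the larger members that were also larger in all 5 pairs before surgery, let-7 and the miR-24 and miR-27 names were the most abundant. let-7i-5p had a mean log2 ratio of 0.97 ± 0.25 before surgery, and let-7b-5p, let-7d-5p and let-7g-5p were larger in 5 of 5 animals as well. miR-24-3p (0.58 ± 0.24), miR-27a-3p (0.90 ± 0.58) and miR-27b-3p (0.78 ± 0.30) were larger in 5 of 5, as were miR-17-5p (1.26 ± 0.59), miR-20a-5p (0.67 ± 0.63), miR-29b-3p (1.17 ± 0.46) and miR-26b-5p (0.96 ± 0.49). The median of the mean ratios of all 393 names before surgery was 1.06. let-7i-5p, miR-24-3p, miR-27a-3p, miR-27b-3p, miR-20a-5p and miR-26b-5p lay below it, and miR-17-5p and miR-29b-3p above it. With 5 pairs the smallest p a 2-sided exact paired permutation test can reach is 0.0625. miR-451a did not keep its direction before surgery, with ratios of 0.015, −2.59, 1.26, −0.13 and 0.13 in animals A to E. miR-221-3p was larger in 4 of 5 (mean 0.57 ± 0.44) and miR-21-5p in 4 of 5 (0.78 ± 0.60).

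**Figure D4:**
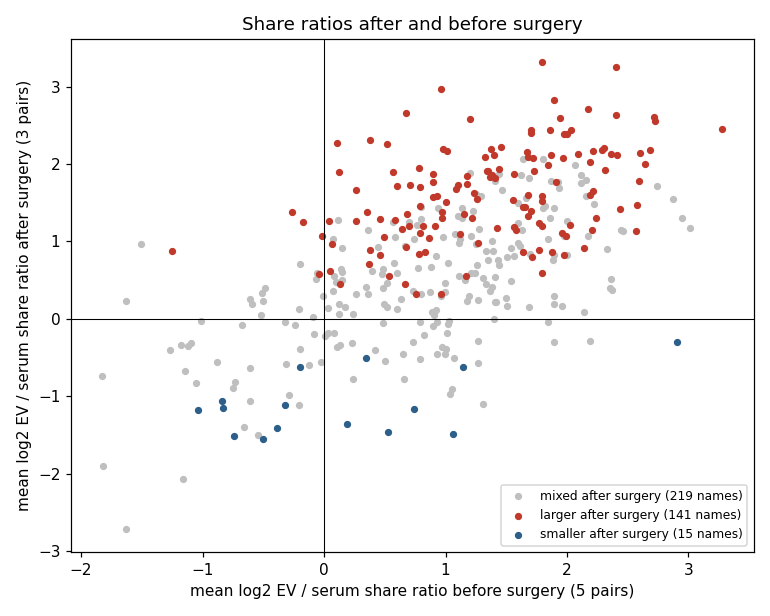
Each point is 1 name above 0 in all 6 libraries after and all 10 before surgery, with its mean log2 ratio of EV to serum share before surgery (5 pairs) on the x axis and after surgery (3 pairs) on the y axis. Red points are the 141 larger members, blue the 15 smaller members and grey the 219 mixed names. Of the red points 136 lie right of 0, and 8 of the blue points lie left of it. Animals D and E gave libraries to both axes.

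The rule drew its line through values close to 0. Just inside it among larger members were miR-320a, with a log2 ratio of 0.0038 in animal F, and piR_020485, with 0.016 in animal D. Just outside were miR-208b-3p, with −0.0036 in animal D, and miR-1199-5p, with −0.016 in animal D. Among smaller members miR-7114-3p (−0.0092 in animal F) and miR-125a-5p lay just inside, and miR-574-3p (0.012 in animal F) and let-7f-5p just outside.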

How the data were processed

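Serum and serum EVs of sheep were profiled by small RNA sequencing, and the table as deposited by the authors held 1075 miRNA and 30 piRNA names with whole-number counts in 16 libraries. Per the labels' protocols, an RNeasy kit served for RNA of the eluted particles and a QIAseq miRNA kit for the libraries. The submitters' processing notes name bcl2fastq 2.20.0.422 as a tool and hg19, a human assembly, as the genome build. Which aligner, counter and annotation were applied, and whether molecular identifiers were collapsed, is not given in the sources used here. Near-identical miRNAs (the let-7 and miR-320 families, miR-17 and miR-106) may exchange reads, so their single values are uncertain, and some names may collect pieces of other RNAs.

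A share is a name's percent of its library's counts, and a ratio is log2 of the EV share over the serum share of 1 animal, with mean ± SD over pairs. Wilson 95% intervals of the shares printed for named members were no wider than 0.211 percentage points on each side, which is counting error alone, as PCR copies are no independent molecules. Groups came from the titles. Pairing rests on the letters, read as animals, from whose serum the EVs were isolated. The members and lists were chosen with earlier results of these data known. Tests used edgeR 4.0.16 under R 4.3.3 (glmQLFit and glmQLFTest, the quasi-likelihood method, with the animal as a block and TMM factors). Names entered by filterByExpr at a minimum of 10 counts, p-values were adjusted by Benjamini and Hochberg's method over all names tested at a threshold of 0.05, counts were used as deposited, and an adjusted p with no tool beside it is edgeR's. Alternatives were DESeq2 1.42.0, limma-voom (limma 3.58.1), other scalings and filters, thinning to 92810 counts, and leaving out each animal.

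Named were, per direction, the 12 members with the largest mean ratio among those with a mean share of at least 0.01%, the 10 most abundant members, up to 4 members of each list by share, and the 2 names on either side of the rule's line. Other names in the text, among them the other list members, single arms and names of mixed direction, were chosen after their values were seen.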

Additional observations from a re-analysis of the deposited data

Results flagged for a closer look

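In libraries before surgery, which did not choose the members, 5 of 61 named ratios had 1 animal far from the other 4. Chance alone does this in about 1 in 20 such groups when the groups are independent. The named ratios share libraries, so that rate is only a rough guide. In animal D, whose serum library before surgery stood apart, the log2 ratio was −0.20 for miR-2355-5p (2.49 to 3.21 in the other animals), −1.40 for miR-889-5p (2.18 to 3.32) and −2.93 for piR_020485 (1.29 to 2.02). In animal A it was 2.60 for miR-151a-5p (0.25 to 0.80 in the others), and in animal C it was 1.53 for miR-6756-3p (−0.17 to 0.26).

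For 2 members all pairs after surgery went one way and all pairs before surgery the other, and this difference was not tested. Of 141 larger members 1 was smaller in all 5 pairs before surgery (0.709%), beside 1.02% of all 393 names. Of 15 smaller members 1 was larger in all 5 (6.67%), beside 12.5% of all names. Neither percent was above that of all names. miR-1265 had a mean log2 ratio of −0.29 after surgery and ratios of 0.30 to 5.54 before it. piR_004987 had a mean of 0.88 after surgery and ratios of −2.13 to −0.091 before it.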

How the results depend on the processing

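Scaling decided the balance of directions. The 155 larger and 15 smaller names became 53 and 73 with TMM-scaled shares, 61 and 65 relative to the median name of the pair, and 80 and 9 where the counting interval had to lie on one side of 1 in every pair. Leaving out 1 animal gave 189 to 265 larger and 25 to 53 smaller names, since 2 pairs are passed more easily than 3 (most without D for larger names, 265, and without F for smaller ones, 53). Of the other totals and filters, leaving miR-486-5p out of the total gave 129 and 21, and thinning gave 135 and 17. The edgeR count after surgery was 0 in either direction, and 102 and 61 with DESeq2, 96 and 21 with limma-voom and, leaving out 1 animal, 0 to 198 higher and 0 to 68 lower (198 and 68 without animal D). With no replicate block it was also 0. Before surgery it was 0 with the replicate block, and 21 higher and 2 lower with no replicate block, 11 and 18 with no filter on low counts, 156 and 79 with DESeq2, 25 and 5 with limma-voom, and 0 to 31 lower with 1 animal left out (31 without D). The 26 larger members that were larger in every pair before surgery became 17 with TMM-scaled shares and 27 to 108 with 1 animal left out (108 without D), and the 1 smaller member became 1 to 5 (5 without D). Chosen after seeing the data was the count over animals A, B and C only, 113 larger and 5 smaller. The cause of these differences was not tested beyond those named. Of 65 named mean ratios, 12 changed sign with TMM-scaled shares, 9 relative to the median name and 1 at most under each other alternative. Counts under 10 and the 3 pairs limit what single scarce names can show.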

Other observations

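Apart from the names compared, 72 names were above 0 in all 3 EV libraries and listed at 0 in all 3 serum libraries after surgery, and 10 names showed the reverse. Zeros were shared between libraries, most of all between animals E and F of the same fraction, so a name listed at 0 carries no limit of detection, and no ratio is given for any of these names.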
